A study of Mus musculus with 24 samples.

Results

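A set of 10 genes of choline and phosphatidylcholine metabolism were followed in the livers of mice on a methionine-choline deficient (MCD) diet or a control diet. The members, taken by gene symbol, were Slc44a1, Chdh, Chka, Chkb, Etnk2, Pcyt1a, Pcyt2, Cept1, Chpt1 and Pemt, 10 of the 56205 gene rows in the count table. All 10 are protein-coding, and gene coordinates below are from GENCODE M21 on GRCm38, the assembly that the label mm10 names. All 10 passed the filter on low counts, with 211 counts (Chka) to 18103 counts (Pcyt2) per library. The animals were C57BL/6J mice of both sexes, planned as 6 per sex in each diet, kept on their diet for 20 weeks, and each of the 24 libraries held polyadenylated RNA of whole liver (12 control, 12 MCD). The study's methods list this MCD diet as high in fat and its results speak of CDAHFD, a choline-deficient diet rich in fat. Whether both names stand for the same diet is not stated there. MCD, as in the labels, is kept here, and the age of these animals at the start is not given in the sources used here. The labels tie no library to a sex, cage or sequencing run. They do not say in so many words that each library is a separate animal, so p-values measure the spread between libraries.

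Choline enters liver cells through transporters such as Slc44a1 and then takes one of several routes. Choline kinases (Chka, Chkb) phosphorylate it, the enzyme Pcyt1a makes CDP-choline, and the phosphotransferases Chpt1 and Cept1 join it to diacylglycerol to give phosphatidylcholine, the main phospholipid of membranes and of secreted lipoproteins. The parallel branch from ethanolamine runs through Etnk2 and Pcyt2 to phosphatidylethanolamine, which Pemt, an enzyme most active in liver, methylates to phosphatidylcholine with methyl groups from S-adenosylmethionine. Choline dehydrogenase (Chdh) instead oxidizes choline in mitochondria on the way to betaine, a methyl donor for making methionine from homocysteine.

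Promoters of 3 members are printed because the results turn on these genes: Pcyt1a, whose MCD libraries were all beneath the controls after library scaling, Chdh, which was lower, and Chka, the sole member that was higher. Each runs from 250 bases before to 50 after an annotated start on the plus strand (RefSeq, GRCm38.p6). Capitals mark TCACCCCAC in Pcyt1a, a match to the sterol regulatory element letters TCACNCCAC, and TGACTCA in Chdh, a match to the AP-1 letters TGANTCA. The Chka window held none of the 6 motifs searched and has no capitals.
Pcyt1a, chr16:32430671-32430970: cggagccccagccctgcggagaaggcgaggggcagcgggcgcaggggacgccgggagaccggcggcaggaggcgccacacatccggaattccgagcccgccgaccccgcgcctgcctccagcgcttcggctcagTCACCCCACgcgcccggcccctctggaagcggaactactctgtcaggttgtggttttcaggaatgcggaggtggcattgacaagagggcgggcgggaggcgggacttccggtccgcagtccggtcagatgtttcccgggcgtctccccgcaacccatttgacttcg
Chdh, chr14:30008750-30009049: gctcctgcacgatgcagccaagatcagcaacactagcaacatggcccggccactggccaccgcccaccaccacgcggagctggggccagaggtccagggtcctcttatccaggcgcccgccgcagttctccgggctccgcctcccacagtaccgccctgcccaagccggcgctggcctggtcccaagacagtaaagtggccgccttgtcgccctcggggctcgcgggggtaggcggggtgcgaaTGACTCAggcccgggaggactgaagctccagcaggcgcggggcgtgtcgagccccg
Chka, chr19:3851523-3851822: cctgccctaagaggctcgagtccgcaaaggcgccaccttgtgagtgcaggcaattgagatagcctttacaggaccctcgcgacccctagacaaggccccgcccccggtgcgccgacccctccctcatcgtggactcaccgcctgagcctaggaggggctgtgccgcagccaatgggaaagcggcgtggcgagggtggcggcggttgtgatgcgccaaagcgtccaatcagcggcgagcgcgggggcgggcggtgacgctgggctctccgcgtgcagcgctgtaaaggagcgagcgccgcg
The Pcyt1a match begins 116 bases before the start, and the Chdh match begins 6 bases before it. The search covered both strands of 17 promoters of 9 members, since the promoter table used here gave none for Pcyt2. TCACNCCAC was in 1.24% and TGANTCA in 7.81% of all 32851 promoters of that length. The letters CACGTG (E-box, 7.15% of promoters), TGACGTCA (CRE, 1.79%), TGATGNAA (CEBP-ATF element, 3.97%) and the nuclear receptor element DR1 (AGGTCA repeated after 1 base, 0.0396%) were in no member's window. A match is a description of these letters only.

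Per length of exon, the ethanolamine and methylation branch was the most abundant in control livers. Pemt stood at 169 ± 49.0 CPM per kb of exon (counts scaled to library size and divided by exon length, SD, n = 12), Pcyt2 at 158 ± 51.7 and Etnk2 at 109 ± 32.8, and these neighbours overlapped in their spread. Chdh followed at 40.4 ± 6.98 CPM per kb. Chkb (22.0 ± 3.69), Chpt1 (18.6 ± 9.48), Pcyt1a (18.5 ± 2.91) and Cept1 (17.5 ± 2.14) lay within each other's spread on this scale. Slc44a1 had 5.36 ± 0.88 and Chka 1.49 ± 0.482 CPM per kb, so Chka was far below Chkb in level. In MCD livers Pemt remained highest, at 138 ± 17.3 CPM per kb, and Chka lowest, at 2.62 ± 0.298.

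The question of the comparison was which of these genes differed between the diets. In MCD livers 1 member, Chka, was higher and 4 members, Chdh, Pcyt1a, Pcyt2 and Chpt1, were lower. A gene was called where edgeR's quasi-likelihood test gave an FDR (false discovery rate after Benjamini-Hochberg) of at most 0.01 and the log2 fold change was beyond 0.5 in either direction. Across all 14109 genes tested, 38.3% were called, 19.2% as higher and 19.1% as lower, so 5 of 10 members called is to be read against a large background. The median log2 fold change was -0.38 for the members and -0.10 for all genes tested. With TMM-scaled library sizes the whole MCD group was beneath the whole control group for 2 members, and 14.4% of all tested genes had no overlap between the diets.

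**Figure D1:**
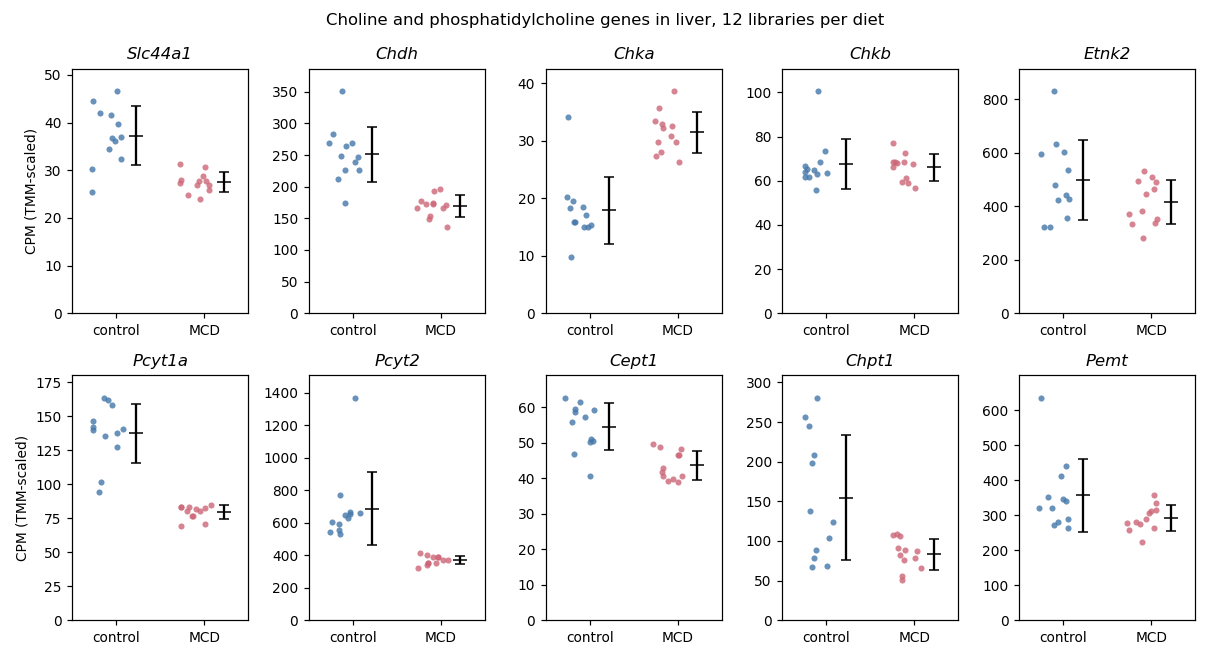
Level of each of the 10 genes in CPM with TMM-scaled library sizes (vertical axes start at 0), by diet. Each point is 1 of 12 libraries per diet and the bars give the mean and SD. Pcyt1a and Pcyt2 do not overlap between the diets, and 1 control library of Chka sits at 34.1 CPM among the MCD values.

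Slc44a1 (ENSMUSG00000028412, chr4:53440413-53622478, plus strand), the plasma membrane and mitochondrial choline transporter, ran from 25.4 to 46.7 CPM in control livers (median 36.9) and from 23.9 to 31.3 CPM in MCD livers (median 27.5). The groups overlapped, with 10 of 12 control libraries above every MCD library. A log2 difference of -0.44 (SE 0.08, edgeR FDR 3.17e-05) missed the fold limit.

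Chdh (ENSMUSG00000015970, chr14:30009023-30040527, plus strand), which commits choline to oxidation, ran from 175 to 352 CPM in control livers (median 248) and from 136 to 196 CPM in MCD livers (median 172). In 9 of 12 MCD libraries it was below every control library. It fell by 0.57 on the log2 scale (SE 0.09, 95% confidence interval -0.75 to -0.39, edgeR FDR 3.19e-06). The call sat close to the fold limit and was lost without MCD replicate 2, where the log2 fold change was -0.4998. It was also lost with upper-quartile factors (-0.42) and with at least 10 counts in every library (-0.49).

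Chka (ENSMUSG00000024843, chr19:3851773-3894369, plus strand), the choline kinase that is often raised in proliferating cells, ran from 9.80 to 34.1 CPM in control livers (median 16.5) and from 26.2 to 38.7 CPM in MCD livers (median 31.5). In 11 of 12 control libraries it was below every MCD library, and control replicate 4, at 34.1 CPM, was the exception. Chka rose by 0.82 on the log2 scale (SE 0.13, 95% confidence interval 0.56 to 1.08, edgeR FDR 3.52e-06), a fold of 1.76. Without control replicate 4 the log2 fold change was 0.94 (edgeR FDR 4.08e-09).

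Chkb (ENSMUSG00000022617, chr15:89426360-89429908, minus strand), the other choline kinase, gave a mean of 67.4 CPM (SD 11.3) on the control diet and 66.1 CPM (SD 6.05) on MCD. The control libraries ran from 56.0 to 101 CPM, the highest being control replicate 12, and overlapped the MCD libraries, which ran from 56.6 to 77.3 CPM. The log2 fold change was -0.03 with a 95% confidence interval from -0.19 to 0.13 (edgeR FDR 0.765), and its sign changed with the scaling. Exons of Gm44502 on the same strand cover 50.7% of the Chkb exon bases, so the counting could have split reads between them; Gm44502 had 935 counts in all libraries together and Chkb 32994.

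Pcyt1a (ENSMUSG00000005615, chr16:32430921-32475070, plus strand), the enzyme that sets the rate of the CDP-choline route, ran from 94.0 to 164 CPM in control livers (median 140.0) and from 69.3 to 84.4 CPM in MCD livers (median 81.0). On TMM-scaled levels all 12 MCD libraries were below all 12 control libraries, with a gap from 84.4 to 94.0 CPM. The library at 94.0 CPM was control replicate 12, with 1243 counts of 20583354 in total and a scaling factor of 0.643. By total counts alone it lay below every MCD library, the lowest of which (MCD replicate 2) held 1950 of 23360111. Pcyt1a fell by 0.79 on the log2 scale (SE 0.08, 95% confidence interval -0.96 to -0.63, edgeR FDR 3.41e-09), with MCD livers at 0.577 of the control level. The promoter printed above holds the TCACCCCAC match.

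Chpt1 (ENSMUSG00000060002, chr10:88452745-88504073, minus strand), a phosphotransferase that makes phosphatidylcholine, ran from 66.5 to 281 CPM in control livers (median 131) and from 50.2 to 108 CPM in MCD livers (median 85.0). It was the most variable member in control livers, with a coefficient of variation of 51.0%, and 7 of 12 control libraries exceeded every MCD library. It fell by 0.90 on the log2 scale (SE 0.23, 95% confidence interval -1.36 to -0.43, edgeR FDR 0.0012). This pools both sides of the sex-linked expression score described below. Control and MCD medians were 227 and 98.2 CPM at scores below 0, and 83.1 and 77.5 CPM above 0. The slopes on the score did not differ between the diets at the limit used (edgeR FDR 0.0804). Cept1 (ENSMUSG00000040774, chr3:106502260-106547802, minus strand), which uses both choline and ethanolamine, gave a mean of 54.5 CPM (SD 6.66) on the control diet and 43.6 CPM (SD 4.03) on MCD, and 10 of 12 control libraries were above every MCD library. Its log2 fold change of -0.32 (SE 0.07, edgeR FDR 0.0003) was within the fold limit.

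Exons of other genes on the opposite strand overlap 6 further members: Dennd2d covers 24.7% of the Cept1 exon bases, Cacna1d 9.47% of Chdh, Sycp3 7.93% of Chpt1, Slc51a 7.65% of Pcyt1a, 1700060J05Rik 4.46% of Slc44a1 and AC133523.2 1.37% of Chka. C730034F03Rik, also on the opposite strand, covers 10.5% of the Chkb exon bases. Further overlaps were those of 2210020O09Rik with Pcyt1a, Dram2 with Cept1 and Gm16066 with Chka. Where counting ignored strand, reads of such pairs cannot be told apart.

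In the ethanolamine branch, Etnk2 (ENSMUSG00000070644, chr1:133363572-133380336, plus strand) overlapped widely, running from 323 to 831 CPM in control livers (median 460.0) and from 281 to 531 CPM in MCD livers (median 414). The log2 fold change was -0.26 with a 95% confidence interval from -0.55 to 0.04 (edgeR FDR 0.117). Pcyt2 (ENSMUSG00000025137, chr11:120610087-120617936, minus strand), which makes CDP-ethanolamine, ran from 532 to 1368 CPM in control livers (median 638) and from 321 to 411 CPM in MCD livers (median 370.1). All 12 MCD libraries were below all 12 control libraries. Pcyt2 fell by 0.89 on the log2 scale (SE 0.12, 95% confidence interval -1.14 to -0.65, edgeR FDR 3.26e-07). Pemt (ENSMUSG00000000301, chr11:59970614-60046489, minus strand) ran from 264 to 635 CPM in control livers (median 330.5) and from 223 to 358 CPM in MCD livers (median 286), and the groups overlapped. The difference of -0.29 on the log2 scale (SE 0.12, edgeR FDR 0.035) did not pass.

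One control library stood apart. Control replicate 12 had the lowest scaling factor (0.643) and the lowest mitochondrial share (5.34%), and it held the highest control values of Pcyt2, Pemt, Chkb and Etnk2 and the lowest of Chdh, Slc44a1 and Pcyt1a. Without it the log2 fold change was -0.72 for Pcyt2 (edgeR FDR 4.9e-10), -0.15 for Pemt (FDR 0.132), -0.13 for Etnk2 (FDR 0.354), -0.58 for Chdh and -0.80 for Pcyt1a, and no member's call changed, although Chkb turned to 0.07.

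The size of these differences depended on library scaling. TMM factors were 0.643 to 0.973 in control libraries and 1.07 to 1.26 in MCD libraries, with no overlap. With libraries scaled by total counts alone the median of all genes moved up by 0.37, the share of called genes that were higher went from 50.2% to 84.2%, and 0 members were called lower while Chka was still higher (1.17, edgeR FDR 7.82e-08). With total counts Pcyt1a stood at -0.45, Pcyt2 at -0.50, Chpt1 at -0.53 and Chdh at -0.23, all below 0, whereas Pemt (0.10), Cept1 (0.04), Etnk2 (0.13) and Chkb (0.35) changed sign. Hepatocyte markers were lower in MCD livers by a median log2 fold change of -0.62 over 7 measured markers (4 called lower, 0 higher), with their summed level at 71944 to 170257 CPM in control and 53151 to 78481 CPM in MCD livers. Cholangiocyte markers were higher in 5 of 5, proliferation markers in 5 of 5, stellate and mesenchymal markers in 7 of 8 (Lrat was lower), macrophage markers in 6 of 8 (Clec4f and Timd4 were lower), lymphocyte markers in 3 of 5 tested, and endothelial markers were lower in 4 of 5. Of these, Krt7, Ccnb1, Trem2, Gpnmb, Cd3e, Cd3g and Nkg7 passed the filter on low counts through the MCD libraries alone. Timd4 passed it through the control libraries alone. The filter thus favoured the direction of these calls, which include every lymphocyte marker called. In whole liver, fewer cells of a type and less RNA per cell cannot be told apart. When libraries were scaled to the 7 hepatocyte markers, a choice made after the results were seen, Chka was higher by 1.34 (edgeR FDR 2.03e-08) and Chkb by 0.52 (FDR 6.41e-05), Pcyt1a was at -0.32 (FDR 0.0488), Pcyt2 at -0.33 (FDR 0.00822), Chpt1 at -0.42 (FDR 0.108) and Chdh at -0.09 (FDR 0.589), and no member was called lower. The part of cell composition in these differences was not tested.

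**Figure D2:**
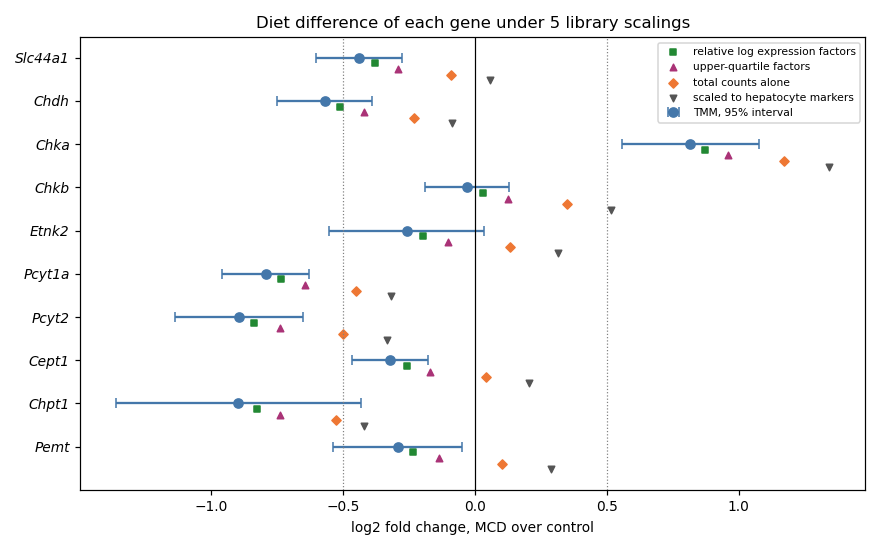
Log2 fold change (MCD over control) of each gene. Circles with 95% intervals use TMM scaling and the other symbols use 4 other scalings; dotted lines mark the fold limit of 0.5. Chka lies above 0.5 under all 5 scalings, and Pcyt1a, Pcyt2, Chpt1 and Chdh stay below 0, while Slc44a1, Chkb, Etnk2, Cept1 and Pemt cross 0.

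Ratios of 2 genes within a library do not depend on scaling, and 6 pairs were compared. The Chka to Chkb log2 ratio was -1.95 ± 0.41 in control and -1.07 ± 0.09 in MCD livers (SD, n = 12 each), so Chka stood 1.84-fold higher relative to Chkb (difference 0.88, two-sided permutation test with 100000 resamples, adjusted p = 4e-05, Benjamini-Hochberg over 6 pairs; the raw value of 2e-05 is the smallest the resamples can give). For this pair 2 of 12 MCD libraries were above every control library, since control replicate 4 lay inside the MCD range. The Chdh to Chka log2 ratio fell from 3.84 ± 0.50 to 2.43 ± 0.24 (difference -1.41, permutation test, adjusted p = 4e-05), and all 12 MCD libraries were below every control library. Chka relative to Etnk2 was higher by 1.09 (permutation test, adjusted p = 4e-05), with 10 of 12 MCD libraries above every control library. Each of these 3 pairs holds Chka.

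Within the pathway's later steps the ratios differed less. Pemt relative to Pcyt1a was higher by 0.52, from 1.35 ± 0.57 to 1.87 ± 0.23 (SD, n = 12 each; permutation test, adjusted p = 0.0118), and the libraries overlapped. Pcyt1a relative to Pcyt2 differed by 0.07 (permutation test, adjusted p = 0.856), and turned to -0.07 without control replicate 12. Cept1 relative to Chpt1 differed by 0.44 (permutation test, adjusted p = 0.115). That test pooled libraries from both sides of the sex-linked expression score described below, where the ranges of this ratio are given by side.

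**Figure D3:**
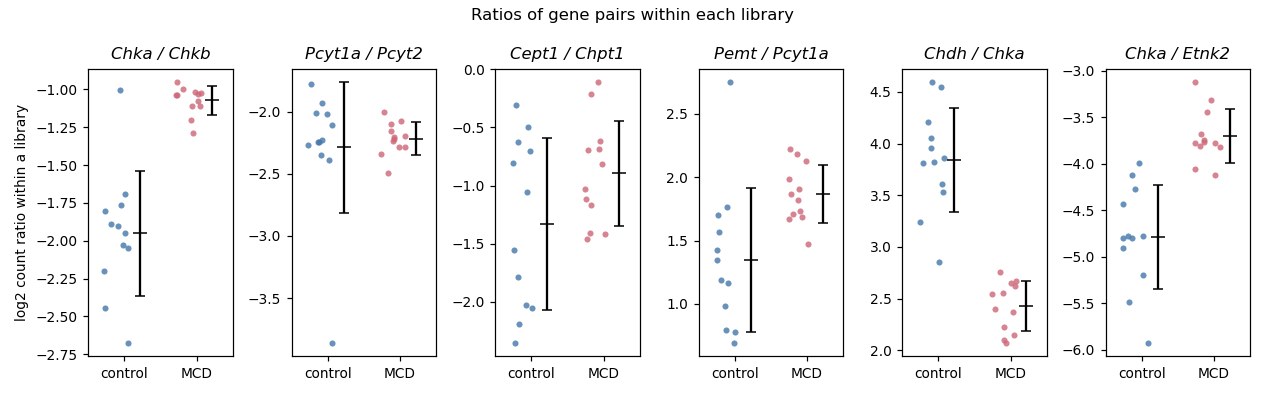
Log2 ratio of counts of 2 genes within each library, by diet; each point is 1 library and the bars give mean and SD (12 per diet). The Chdh to Chka ratios do not overlap, and the Chka to Chkb ratios of MCD livers lie between -1.29 and -0.95.

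The series holds both sexes, and a sex-linked expression score (the log2 level of Xist less the average log2 level of 4 Y-linked genes) was used as a number, with no library assigned a sex. In each diet 6 libraries had scores above 0 and 6 below. Chpt1 was the 1 member whose level followed it in control livers, where the 6 libraries above 0 gave 66.5 to 124 CPM (median 83.1) and the 6 below 0 gave 138 to 281 CPM (median 227). In MCD livers the values were 50.2 to 87.8 CPM (median 77.5) and 65.4 to 108 CPM (median 98.2). The fitted change of Chpt1 over the range of the score was -1.45 in control livers (SE 0.18, edgeR FDR 5.15e-06), the call rate across all genes being 4.66%. In MCD livers it was -0.48 (SE 0.20, edgeR FDR 0.449), with 1.01% of all genes called. The difference between these slopes was 0.97 (SE 0.27, edgeR FDR 0.0804), which did not pass, and 0.411% of all genes did. In MCD livers Cept1 ran from 42.9 to 49.5 CPM above 0 and from 39.1 to 41.8 CPM below 0, and Pemt from 290.0 to 358 CPM and from 223 to 282 CPM. Neither slope was called (edgeR FDR 0.378 and 0.777), and 3.27% of all genes had no overlap between these sides in MCD livers. With the score as a covariate Chpt1 differed between the diets by -0.75 (edgeR FDR 7.18e-05), a value averaged over both sides of the score. At scores below 0 the Cept1 to Chpt1 log2 ratio ran from -2.35 to -1.55 in control and from -1.46 to -0.68 in MCD livers. At scores above 0 it ran from -1.06 to -0.30 and from -1.03 to -0.11. Whether the diet difference of this ratio varies with the score was not tested.

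**Figure D4:**
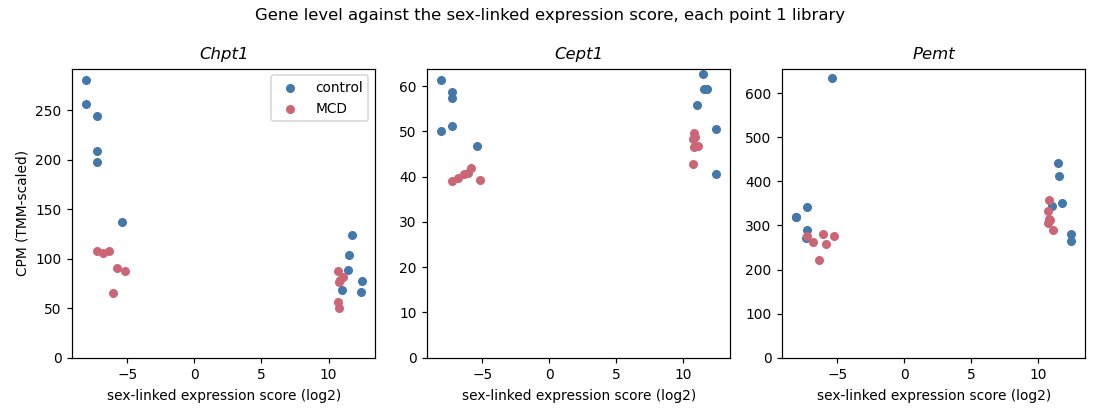
Level of Chpt1, Cept1 and Pemt in CPM against the sex-linked expression score (log2), each point 1 library, coloured by diet. In control livers Chpt1 is 66.5 to 124 CPM at scores above 0 and 138 to 281 CPM below 0.

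Within the diets some member pairs moved together and others in opposite directions. Over the 24 libraries, log2 CPM deviations from the diet mean correlated positively in 20 of the 45 member pairs and negatively in 25. Pearson correlations were 0.76 for Chkb with Pcyt2, 0.73 for Chdh with Pcyt1a, -0.77 for Chdh with Pemt and -0.69 for Pcyt1a with Pemt, as descriptions over libraries that share depth and scaling. Control replicate 12 carried much of this, and without it the values were 0.30, 0.59, -0.64 and -0.45. For Pcyt1a with Pemt the correlation was -0.77 among control and -0.29 among MCD libraries, and for Chdh with Pemt -0.86 and -0.47. The genes most like Pemt, of 10108 compared, were Lamtor2 (0.92), D10Jhu81e (0.91) and Gstt2 (0.91), at 0.84, 0.83 and 0.90 without control replicate 12. Most like Chka were Kmt5a (0.78), Fosl2 (0.75) and Emp1 (0.74), at Spearman values of 0.73, 0.52 and 0.56 and, without control replicate 4, Pearson values of 0.70, 0.62 and 0.59. Most like Chdh were Dst (0.93), Eif4g1 (0.93) and Vps13d (0.90), at 0.90, 0.90 and 0.86 without control replicate 12.

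Beyond the members, 50 other genes of the pathway were listed by role, of which 46 were tested; Slc44a5, Slc5a7, Slc22a2 and Mboat2 were too low. Among them 10 were higher and 13 lower in MCD livers, with a median log2 fold change of -0.25, and 14 had no overlap between the diets. That is 50% of the 46 called, beside 38.3% of all genes tested (19.2% higher, 19.1% lower, 14.4% without overlap). Slc44a4, Pcyt1b, Mboat1 and Pla2g4a met the minimum count for testing through the MCD libraries alone, so the filter favoured a higher call. Slc44a4, Pcyt1b and Mboat1 reached that count in 2 of 12 control libraries each, and Pla2g4a in 11 of 12. Among the 42 genes that met it in both diets 6 were higher, 13 lower and 11 without overlap. Under total counts alone 14 of the 46 were higher and 2 lower (Dmgdh and Slc6a12), beside 4537 higher and 850 lower of all 14109 genes. With scaling to hepatocyte markers 17 of the 46 were higher and 1 lower (Dmgdh), beside 5933 higher and 513 lower of all 14109. The 6 genes listed for making, carrying and using betaine or its products were all called lower: Dmgdh (-1.02), Slc6a12 (-0.99), Sardh (-0.86) and Bhmt2 (-0.82) fell most, with no overlap between the diets for these 4. Dmgdh demethylates dimethylglycine, which is left when betaine gives up a methyl group, Sardh demethylates sarcosine, the product of Dmgdh, Slc6a12 carries betaine into cells, and Bhmt2 is a homocysteine methyltransferase related to the betaine enzyme Bhmt. Dmgdh went from 534 ± 82.7 to 263 ± 21.6 CPM (SD, n = 12 each; edgeR FDR 7.15e-11).

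Acyl remodelling enzymes, which exchange the fatty acids of phospholipids, moved in 2 directions. Mboat1 (2.67), Lpcat4 (2.18), Lpcat2 (1.51) and Lpcat1 (1.49) were higher, while Lpcat3, the main liver enzyme of this kind, named after its value was seen, was lower at -0.56 (edgeR FDR 6.35e-07; SE 0.08, from a mean of 202 to a mean of 137 CPM). Its call was lost with upper-quartile factors (-0.41), total counts alone (-0.21), scaling to hepatocyte markers (-0.06), a minimum of 10 counts in every library (-0.48), a log2 limit of 1, and without control replicate 3 (-0.49). Among choline transporters 3 of 7 tested were higher, Slc44a4 (3.34), Slc44a2 (1.29) and Flvcr1 (1.07), and 0 were lower. Across all genes tested 19.2% were higher. Of the Kennedy pathway partners, Pcyt1b, the other enzyme that makes CDP-choline, was higher (2.56) and Selenoi (-0.82) and Etnk1 (-0.67), both of the ethanolamine branch, were lower. Slc44a4, Pcyt1b and Mboat1 had medians of 4.5, 6.5 and 6.5 counts per control library, so their folds rest on few reads. These genes met the minimum count for testing through the MCD libraries alone, so their part in the role counts is no support for a rise. Cholangiocyte markers had a summed level of 30.0 to 146 CPM in control and 451 to 903 CPM in MCD livers, most of it from Spp1, which averaged 58.6 and 593 CPM. Macrophage markers had 187 to 491 CPM and 1597 to 3467 CPM, with Gpnmb at 0 in the lowest control library. Most of the macrophage sum in MCD livers came from Lyz2 and Gpnmb, which averaged 1141 and 567 CPM there. Within the macrophage list Clec4f and Timd4 went the other way, from means of 130.2 to 60.1 CPM and of 5.24 to 0.297 CPM. The part of these cell types in the result was not tested.

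The phosphatidylserine route had 0 of 3 called (Ptdss1, Ptdss2 and Pisd, between -0.12 and 0.06). Of 11 breakdown enzymes Pla2g4a was higher (1.05), and Lypla1 (-0.74) and Pnpla6 (-0.52) were lower, the last with its call lost in 13 of the 24 leave-one-out fits. In transfer and export 1 of 4 was called, Lcat at -0.68, and in sphingomyelin metabolism Smpd3 was higher (1.59) and Sgms2 lower (-0.73) of 5.

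**Figure D5:**
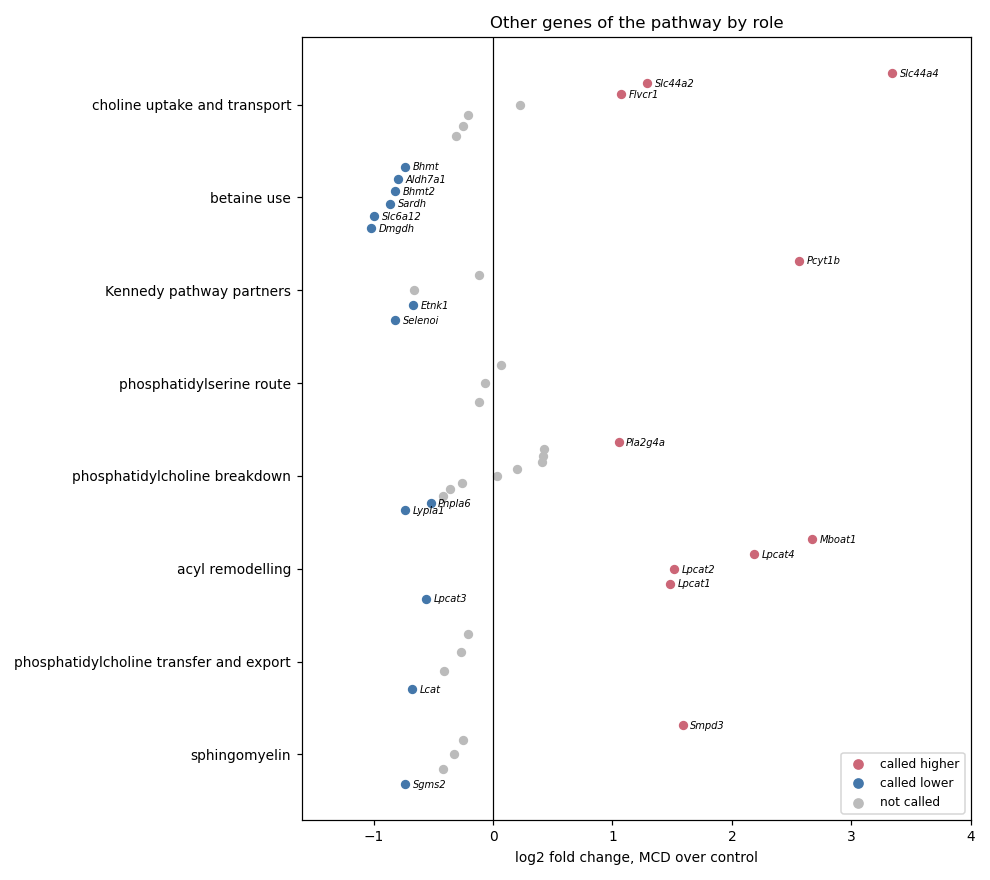
Log2 fold change (MCD over control) of the 46 tested genes of the wider list, grouped by role; red points were called higher, blue lower and grey not called. All 6 betaine genes lie below 0 and 4 of 5 acyl remodelling genes above 1. Mboat1, Slc44a4, Pcyt1b and Pla2g4a met the minimum count for testing through the MCD libraries alone.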

How the data were processed

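Members and lists were chosen with earlier results of these data known. The authors deposited raw read counts per Ensembl gene, 1 column per library. The labels name STAR 2.7.3a, bcl2fastq and build mm10. The study's methods name a TruSeq Stranded mRNA kit and, for reads aligned to the human genome, an exon quantification pipeline and PISCES, and how these mouse libraries were counted, strand included, is not given in the sources used here. Of 56205 rows, 28652 were 0 everywhere and 51745 were named by GENCODE M21; unnamed rows (0.0808% of counts) kept their identifier. Of these, 2122 have identifiers newer than that release. Totals ran from 16793207 to 24915175 (control) and 16388650 to 24577848 (MCD) (permutation test, p = 0.138); the mitochondrial share was 8.80% and 6.83% (p = 0.00062).

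Genes passing filterByExpr by diet (14109) were scaled by TMM and tested with edgeR 4.0.16 (R 4.3.3, glmQLFit, no covariate); called meant FDR at most 0.01 and absolute log2 fold change above 0.5. Promoter sequences are from RefSeq (GRCm38.p6). Ratios used a prior count of 2 and scipy 1.17.1. Alternatives were other scalings and filters, DESeq2 1.42.0, limma-voom 3.58.1, a replicate block, the score, other limits and each library left out. Named genes were the members, up to 4 called genes per role list, the 3 genes most like Pemt, Chka and Chdh, and genes whose exons overlap a member; Lpcat3, Bhmt, Aldh7a1, Ptdss1, Ptdss2 and Pisd were named in addition, after their values were seen. The fits were tested on simulated counts. Score slopes and scaling to hepatocyte markers were added after results were seen. Libraries sharing a replicate number were not treated as pairs, since no label ties them and their correlations ran from -0.28 to 0.35, above 0.1 in 8 of 12.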

Additional observations from a re-analysis of the deposited data

How the results depend on the processing

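Under the alternatives tried, Chka was called higher in each except the log2 limit of 1. Counts over all genes depended on the setting: 4537 higher and 850 lower with total counts alone, 1710 lower with upper-quartile factors, 1801 higher with at least 10 counts in every library, 5221 lower with no fold limit and an FDR of 0.05, and 686 lower with a log2 limit of 1. Members lower numbered 0 with total counts alone, 7 with that looser limit and 0 with a log2 limit of 1, where 0 were higher. Other pathway genes lower numbered 2, 21 and 1 in the same order. With hepatocyte-marker scaling, added after the data were seen, 5933 genes were higher and 513 lower, 2 members were higher and 0 lower, and 17 other pathway genes were higher and 1 lower; Slc44a1 was at 0.059, Chkb at 0.52, Etnk2 at 0.32, Cept1 at 0.21, Pemt at 0.29 and Pnpla6 at 0.0041. With total counts alone Chkb was at 0.35, Etnk2 at 0.13, Cept1 at 0.040 and Pemt at 0.10. Chkb was at 0.030 with relative log expression factors, 0.030 with DESeq2, 0.12 with upper-quartile factors, 0.014 without a filter and 0.055 with at least 10 counts. The cause was not tested. Leaving out each library gave -0.055 to 0.070 for Chkb (sign changed in 12 of 24), and -0.073 to 0.12 for the Pcyt1a to Pcyt2 ratio. With a replicate block 1 member was higher and 4 lower, 2781 genes were higher and 2430 lower, and the Cept1 to Chpt1 ratio of 0.44 passed (exact permutation over pairs, adjusted p = 0.0346). Same-numbered libraries correlated above 0.1 in 8 of 12 pairs (median 0.23, beside -0.06 for other pairs), and 10 of 12 numbers had both libraries on the same side of 0 in the sex-linked score. Of 392 single-gene values under other alternatives, 318 kept their direction and their call status, 56 kept the direction but lost the call, 3 kept the direction and gained it, and 15 changed sign.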
